A study of Mus musculus with 10 samples.

Results

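The glutathione transferases and the enzymes of antioxidant defense were followed in the livers of mice fed a high fat Western diet with a fructose and glucose solution (WD SW) and of mice fed a standard chow diet (CD). Members were all probes whose gene symbol belongs to the alpha, kappa, mu, omega, pi, theta, zeta or microsomal transferases, the glutathione peroxidases, the peroxiredoxins, the thioredoxin reductases or the superoxide dismutases, together with the glutathione synthesis genes, *Cat*, *Nqo1*, *Hmox1*, *Srxn1*, *Txn1*, *Keap1* and *Nfe2l2*. The rule reads the symbol of a probe and no signal, although the families were picked with earlier results of these data known. They comprised 97 of 45281 probes and 53 of 19057 genes on the array. Of these 53 genes, 48 passed the detection filter and were tested, and *Gpx2*, *Gpx5*, *Gpx6*, *Gsto2* and *Gstt4* did not pass it.

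Liver RNA of 10 mice was hybridised to Illumina mouse bead arrays, 5 from WD SW-fed and 5 from CD-fed mice, all after 8 weeks of diet. All 10 samples carried the label of the mixed 129S1/SvImJ;C57Bl/6J background, an isogenic strain kept by inbreeding, and the study describes its dietary groups as male mice of 8 to 12 weeks of age and its CD group as drinking normal water. The labels describe separate samples, and p-values measure the spread between them as if they were independent. Some titles within a diet share a number whose meaning is not stated, so this independence could not be checked. Fat, cholesterol and sugar were given together, and the effects of each cannot be told apart.

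The liver conjugates reactive compounds to glutathione, a small thiol peptide that hepatocytes make in large amounts. Glutathione transferases carry out the conjugation, glutathione peroxidases use glutathione to reduce hydrogen peroxide and lipid peroxides, and peroxiredoxins do similar work with thioredoxin as the reducing partner. Many of these genes are targets of NRF2, a transcription factor encoded by *Nfe2l2* that KEAP1 marks for breakdown until electrophiles or oxidants modify KEAP1.

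The largest changes lay in *Gsta1* and *Gsta2*, which lie near each other on mouse chromosome 9 within chr9:78230669-78347192 (RefSeq, GRCm38.p6). Their upstream stretches are shown because the 2 genes changed together and their sequences are close. Over the windows from 250 bases before to 50 after the start, 289 bases aligned and 80.3% of these were identical. Over the 76 bases printed here, 93.4% were identical, and capitals mark the bases at which the genes differ. The *Gsta1* stretch is chr9:78230549-78230624 on the plus strand and the *Gsta2* stretch is chr9:78347193-78347268 on the minus strand.
Gsta1: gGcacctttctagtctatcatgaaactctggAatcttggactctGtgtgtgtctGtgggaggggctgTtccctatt
Gsta2: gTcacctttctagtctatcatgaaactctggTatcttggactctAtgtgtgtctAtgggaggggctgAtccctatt

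The core of the antioxidant response element, the DNA motif that NRF2 binds with a small MAF protein, was searched on both strands as TGACNNNGC in the 250 bases before and 50 after each annotated start. It was found for 10 of the 48 member genes that have such a window (20.83%), against 3781 of 27025 genes in all (13.99%). Neither *Gsta1* nor *Gsta2* held these letters in this window. Among members, the match was present in 3 of 17 genes higher in WD SW livers, 1 of 5 lower and 6 of 21 not called. A window from each of 3 genes is shown with the match in capitals, for *Nfe2l2* (higher), *Prdx1* (lower) and *Gclm* (not called), since the motif stood beside each kind of outcome. They lie at chr2:75704869-75704913 (minus strand), chr4:116685440-116685500 (plus) and chr3:122245397-122245457 (plus), with the match starting 240, 133 and 134 bases before the start. In *Prdx1* and *Gclm* the match is on the opposite strand, and in *Prdx1* it also holds the AP-1 motif TGACTCA. A match is a description of the sequence and not a measured site.
Nfe2l2: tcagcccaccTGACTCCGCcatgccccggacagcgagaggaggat
Prdx1: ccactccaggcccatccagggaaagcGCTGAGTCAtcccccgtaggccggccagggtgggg
Gclm: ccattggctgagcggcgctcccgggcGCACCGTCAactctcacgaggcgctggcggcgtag

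The 95th percentile of the signal was 870 to 1023 on WD SW arrays, 921 on CD replicate 1 and 403 to 548 on the other CD arrays. The share of probes detected was 41.6 to 45.8% on WD SW arrays, 41.2% on CD replicate 1 and 33.7 to 36.5% on the other CD arrays. Values were quantile normalized and are log2 intensities, and changes are log2 WD SW minus CD from the limma fit over all 10187 genes. The hepatocyte markers *Ttr* and *Apoa1* were bright on all arrays, with means of 14.73 and 14.82 in WD SW and 14.76 and 14.60 in CD livers. *Alb* and *Pck1* were lower in WD SW livers and the other 3 of 5 hepatocyte markers were not called. The *Alb* probe was far dimmer than those of *Ttr* and *Apoa1*, with means of 7.06 in WD SW and 8.99 in CD livers. Which transcript forms it reads was not examined, so its change may not be that of albumin RNA as a whole. Among markers of other cells, higher calls numbered 1 of 5 for macrophages (*Csf1r*), 2 of 5 for stellate cells (*Dcn*, *Col1a1*) and 2 of 4 for erythroid cells, and lower calls 1 of 5 for endothelial cells (*Kdr*) and 1 of 1 for cholangiocytes (*Sox9*). None of 3 neutrophil and 3 lymphocyte markers was called. Across all genes 14.2% were higher and 15.2% lower, so a single call among a few markers is near these shares. *Sox9* was the only cholangiocyte marker tested, since *Krt19*, *Krt7* and *Epcam* did not pass the detection filter. *Col1a1* was detected on 5 WD SW arrays and 1 CD array, so it passed that filter through the WD SW arrays. In a fit with array brightness (the 95th percentile) as a covariate, 3 of 5 macrophage markers (*Lyz2*, *Csf1r*, *Adgre1*) and 1 of 4 erythroid markers were higher. *Alb* and *Sox9* were lower in that fit and no other marker was called, against 2.01% higher and 1.83% lower of all genes. In bulk liver, a change in the share of a cell type cannot be told apart from a change in RNA per cell.

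Of the 48 tested members, 18 were higher in WD SW livers, 5 were lower and 25 were not called at an adjusted p of 0.05. Across all genes 14.2% were higher and 15.2% lower (29.4% either way). The median change was 0.36 for the members and -0.05 for all genes. The 5 WD SW values lay wholly above the 5 CD values for 13 members and wholly below for 5, against 19.6% of all genes with no overlap. When arrays were instead scaled on the median of the tested probes, the member split was 16 higher and 11 lower, with a median of 0.13. Of the 10187 genes, 1207 were then higher and 3263 lower, with a median of -0.22. Each change is thus relative to where most genes lie. With scaling on the median of all probes, which are mostly at background, the member split was 30 higher and 0 lower. Of the 10187 genes, 4872 were then higher and 146 lower, with a median of 0.48.

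**Figure D1:**
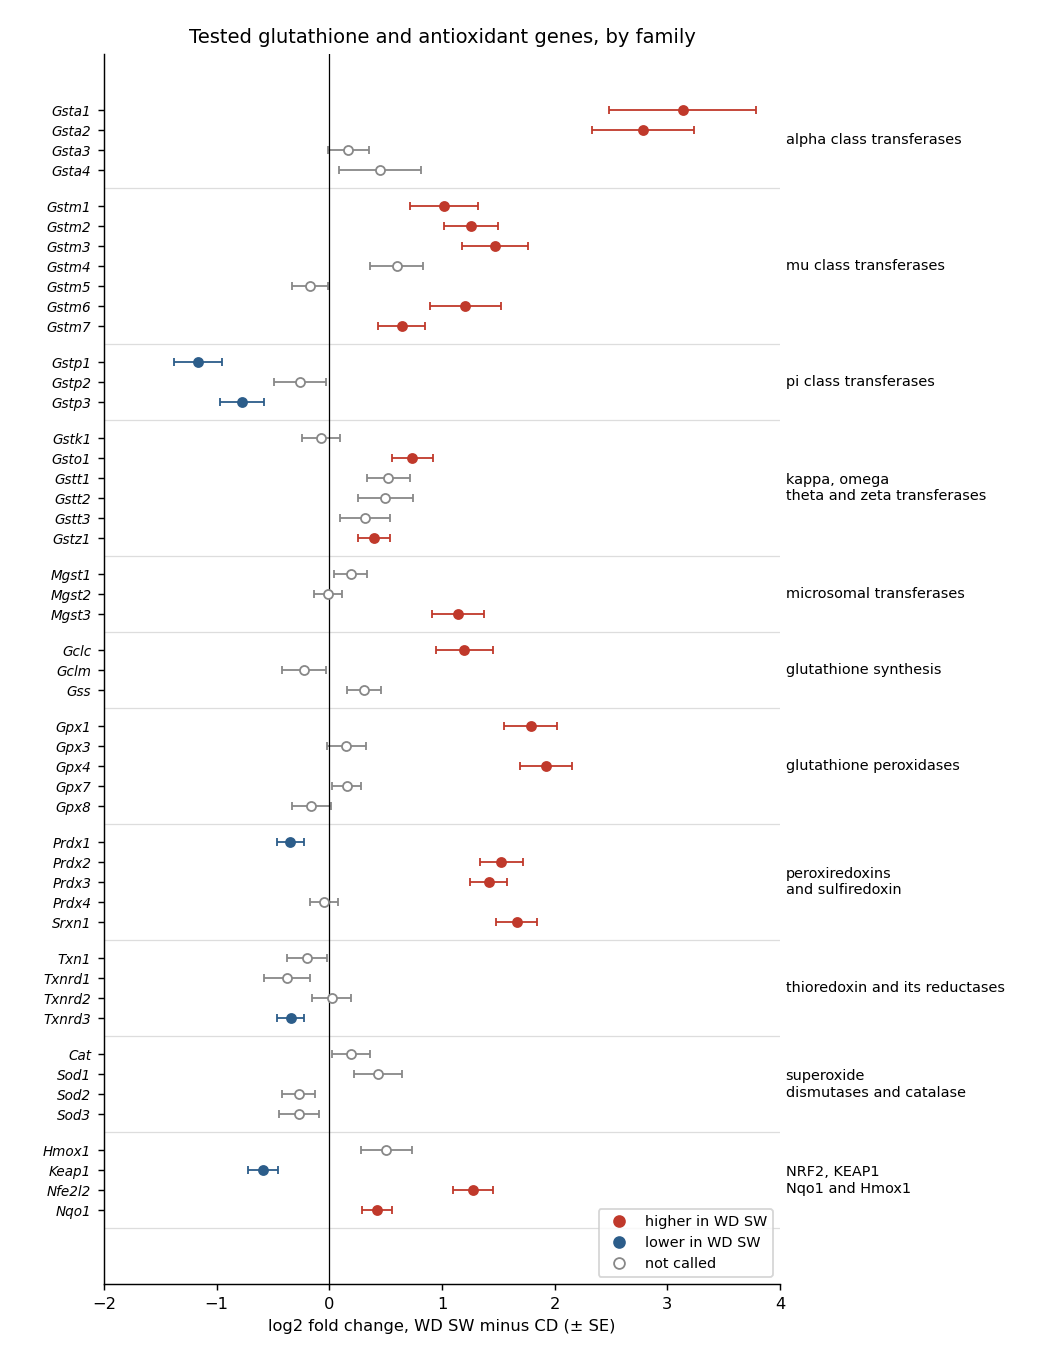
Change of each of the 48 tested genes (log2 WD SW minus CD, horizontal axis, bars are SE from the limma fit, n = 5 arrays per diet), grouped by family; filled points passed an adjusted p of 0.05. *Gsta1* (3.14) and *Gsta2* (2.78) stand farthest to the right, and the pi class genes *Gstp1* (-1.17) and *Gstp3* (-0.77) farthest to the left.

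The alpha class conjugates electrophiles and also reduces lipid peroxides. *Gsta1* had 11.45, 11.44, 10.87, 10.97 and 10.20 in WD SW livers, against 8.24, 8.30, 6.10, 6.07 and 10.57 in CD livers. CD replicate 5 lay within the WD SW range while CD replicates 3 and 4 were the lowest, so the groups overlapped. The difference was 3.14 ± 0.65 (SE), or 8.79-fold (adjusted p = 0.00279). *Gsta2* had 10.29, 9.91, 9.86, 10.10 and 9.25 in WD SW livers, against 7.38, 7.56, 5.72, 6.02 and 8.81 in CD livers. Every WD SW value lay above every CD value, and the order of the CD arrays was nearly that of *Gsta1*. The difference was 2.78 ± 0.45, or 6.89-fold (adjusted p = 0.000508). *Gsta3*, an abundant alpha class enzyme of mouse liver, and *Gsta4*, which prefers the lipid peroxidation product 4-hydroxynonenal, were not called (0.17 ± 0.18 and 0.45 ± 0.36). Probes for these closely related genes may bind each other's transcripts, and their sequences were not used here, so how the signal divides between *Gsta1* and *Gsta2* is uncertain.

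The 7 mu class genes lie within 149 kb on chromosome 3 (chr3:107895854-108045179), and 5 of the 7 were higher in WD SW livers. *Gstm3* had 8.17, 8.33, 6.95, 7.45 and 7.42 in WD SW livers, against 6.11, 6.35, 5.84, 5.55 and 7.12 in CD livers (1.47 ± 0.30, 2.77-fold, adjusted p = 0.00222). WD SW replicate 3 fell just below CD replicate 5, and no other pair overlapped. *Gstm2* had 12.82, 12.98, 11.96, 12.92 and 12.49 in WD SW livers, against 11.88, 11.77, 10.81, 10.88 and 11.54 in CD livers (1.26 ± 0.24, adjusted p = 0.00171). It was the only mu class gene whose groups did not overlap, and its 3 tested probes gave 1.17 to 1.40. *Gstm6* was higher by 1.21 ± 0.32 and *Gstm1*, a major transferase of mouse liver, by 1.02 ± 0.30 (adjusted p = 0.0105 and 0.0216). *Gstm7* was higher by 0.64 ± 0.21 (adjusted p = 0.0300), whereas *Gstm4* (0.60 ± 0.24, adjusted p = 0.0700) and *Gstm5* (-0.17 ± 0.16) were not called. With median scaling over the tested probes *Gstm1* was not called (0.75, adjusted p = 0.0662) and *Gstm4* was called higher (0.68, adjusted p = 0.0419). *Gstm5* stood at 0.64 and was called higher when scaled on the median of all probes. The *Gstm1* call was lost without WD SW replicate 1, WD SW replicate 4 or CD replicate 3 (adjusted p = 0.0587, 0.0624 and 0.0559), and the *Gstm7* call without WD SW replicate 4, WD SW replicate 5 or CD replicate 3 (0.0756, 0.0754 and 0.0566). Mu class transcripts are similar in sequence, and cross-hybridisation was not tested.

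In the pi class 2 of 3 genes were lower in WD SW livers and none was higher. *Gstp1*, the main pi class enzyme, had 10.90, 10.60, 11.05, 11.18 and 11.42 in WD SW livers, against 12.62, 12.29, 11.79, 12.66 and 11.63 in CD livers. All WD SW values lay below all CD values, a difference of -1.17 ± 0.22 (2.24-fold lower, adjusted p = 0.00130). *Gstp3* was lower by 0.77 on the log2 scale (-0.77 ± 0.20, adjusted p = 0.00886), also with no overlap, and *Gstp2*, detected on 3 arrays of each diet, was not called (-0.26 ± 0.23). The direction held for *Gstp1* under both median scalings (-1.34 and -0.64), although the second was not called (adjusted p = 0.0841), whereas *Gstp3* stood at 0.02 when scaled on the median of all probes. All 3 genes lie within 24.2 kb on chromosome 19 (chr19:4035411-4059605), and their signals may be shared between probes. The 3 tested *Gstp1* probes did not move together, with -1.17, -1.70 and 0.61, the third not called.

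Among the remaining transferases, 2 of 6 kappa, omega, theta and zeta genes and 1 of 3 microsomal genes were higher and none was lower. *Mgst3*, a microsomal enzyme with peroxidase activity, had 9.05, 9.36, 8.67, 9.08 and 8.77 in WD SW livers, against 8.13, 8.45, 7.27, 7.24 and 8.10 in CD livers (1.15 ± 0.23, adjusted p = 0.00230). The groups did not overlap, and the second tested probe gave 1.54. *Gsto1*, which reduces dehydroascorbate, was higher by 0.74 ± 0.18 (adjusted p = 0.00780). *Gstz1*, the maleylacetoacetate isomerase of tyrosine breakdown, was higher by 0.39 ± 0.14 (adjusted p = 0.0485), and stood at -0.02 with median scaling over the tested probes. The *Gstz1* call was lost in 8 of the 10 fits that left out 1 array, all but those without CD replicate 1 or CD replicate 2, with changes of 0.30 to 0.46 over the 10 fits and adjusted p up to 0.120. *Gstt1* missed the threshold (0.52 ± 0.19, adjusted p = 0.0524), and *Gstt2*, *Gstt3*, *Gstk1*, *Mgst1* and *Mgst2* lay between -0.07 and 0.50.

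Glutathione is made in 2 steps, the first by the glutamate-cysteine ligase of GCLC (catalytic) and GCLM (modifier) and the second by GSS. Of the 3 genes, only *Gclc* was called. It had 8.37, 7.45, 7.36, 7.62 and 7.24 in WD SW livers, against 7.11, 6.71, 5.89, 5.92 and 6.41 in CD livers, a difference of 1.20 ± 0.25 (2.30-fold, adjusted p = 0.00299). The groups did not overlap. *Gclm*, the modifier subunit, had 10.72, 10.99, 10.84, 10.80 and 11.07 in WD SW livers, against 10.31, 11.25, 11.41, 11.15 and 11.44 in CD livers. CD replicate 1 was the lowest array for *Gclm* and the other 4 CD arrays were above all WD SW arrays. The difference was -0.23 (95% CI -0.64 to 0.19), and without CD replicate 1 it was -0.43 (adjusted p = 0.0253). Its sign turned, with no call, with array brightness as a covariate (0.48 ± 0.23, *Gclc* at 0.32), against CD replicate 1 alone (0.58 ± 0.20, *Gclc* at 0.50) and scaled on the median of all probes (0.36 ± 0.16). *Gss* was not called (0.31 ± 0.15). Of 14 tested genes of glutathione turnover and transport, 3 were higher (*Cth* 1.24, *Esd* 0.94, *Ggct* 0.83) and 2 lower (*Oplah* -0.72, *Slc3a2* -0.52). Across all genes 14.2% were higher and 15.2% lower. *Cth* makes the cysteine that glutathione synthesis uses.

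Of the 5 tested glutathione peroxidases, *Gpx1* and *Gpx4* were higher. *Gpx4*, the selenoenzyme that reduces lipid peroxides within membranes and guards against ferroptosis, had 11.58, 11.29, 11.50, 11.68 and 11.02 in WD SW livers, against 10.11, 9.88, 8.69, 9.28 and 9.51 in CD livers. The gap between the groups was wide, and the difference was 1.92 ± 0.23 (3.79-fold, adjusted p = 6.47e-05). *Gpx1*, the main cytosolic peroxidase, had 14.19, 13.67, 13.97, 14.18 and 14.02 in WD SW livers, against 13.15, 12.38, 11.68, 12.17 and 11.72 in CD livers (1.79 ± 0.24, 3.45-fold, adjusted p = 0.000143). CD replicate 1 was the highest CD array for both genes. *Gpx3*, *Gpx7* and *Gpx8* were dim and not called, between -0.16 and 0.15. Among 15 tested genes of selenoprotein synthesis and transport, 4 were higher, including *Selenof* (1.79), *Trnau1ap* (1.27) and *Sephs2* (0.88). *Trnau1ap* and *Sephs2* act in the supply of selenocysteine. *Trnau1ap* was near background in CD livers (mean 4.89) and was detected on 5 WD SW arrays and 1 CD array. It thus passed the detection filter through the WD SW arrays, and its size of change is uncertain. A further 3 were lower, *Selenow* (-1.28), *Selenok* (-0.81) and *Selenop* (-0.51), the plasma selenium carrier. The shares over all genes were 14.2% higher and 15.2% lower.

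Of the 5 genes for peroxiredoxins and sulfiredoxin, 3 were higher and 1 was lower. *Srxn1*, which restores overoxidised peroxiredoxins and is a standard NRF2 target, had 9.67, 9.49, 9.35, 9.60 and 9.07 in WD SW livers, against 8.06, 8.06, 7.31, 8.04 and 7.40 in CD livers. The difference was 1.66 ± 0.18 (3.17-fold, adjusted p = 3.58e-05), with no overlap. *Prdx3*, the mitochondrial peroxiredoxin, had 8.87, 8.72, 8.54, 9.14 and 8.67 in WD SW livers, against 7.54, 7.55, 7.49, 7.43 and 6.86 in CD livers (1.41 ± 0.16, 2.67-fold, adjusted p = 4.75e-05). CD replicate 5 lay below the other CD arrays, which were close to each other. *Prdx2*, a cytosolic form abundant in red cells, had 10.82, 10.46, 10.53, 10.58 and 10.30 in WD SW livers, against 9.71, 8.98, 8.64, 9.10 and 8.62 in CD livers (1.53 ± 0.19, 2.88-fold, adjusted p = 9.55e-05). Its groups did not overlap either.

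Red cells are also rich in *Gpx1*, and some erythroid markers were higher as well. Of 4 tested erythroid markers, *Hbb-bt* (1.10) and *Hba-a1* (0.92) were higher, while *Alas2* (-0.05) and *Slc4a1* (-0.74) were not called. The summed intensity of the 4 ranged from 10450 to 13478 in WD SW and from 5092 to 9083 in CD livers. The markers did not share an order on CD replicate 1, the CD array on which *Gpx1* and *Prdx2* were highest. There *Hbb-bt* (10.92) and *Slc4a1* (5.16) had their lowest CD value, *Alas2* (10.53) its highest, and *Hba-a1* (11.30) lay between. On CD replicates 3 and 4, *Hbb-bt* (11.88 and 12.15), *Hba-a1* (11.34 and 11.83) and *Slc4a1* (6.49 and 6.98) had their highest CD values. *Alas2* had its lowest CD values on those arrays (9.37 and 9.60). The part of red cells in the *Prdx2* and *Gpx1* differences was not tested. *Prdx1*, the other cytosolic peroxiredoxin, had 13.21, 13.30, 13.36, 13.46 and 13.33 in WD SW livers, against 13.66, 13.61, 13.52, 13.87 and 13.74 in CD livers. The values did not overlap, but the difference was small (-0.35 ± 0.12, adjusted p = 0.0438), and the call was lost in 8 of the 10 fits that left out 1 array, all but those without CD replicate 1 or CD replicate 3 (-0.39 to -0.30, adjusted p up to 0.0990). *Prdx4*, the form of the endoplasmic reticulum, was not called (-0.05 ± 0.12).

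Thioredoxin and its reductases supply the peroxiredoxins with electrons, and none of the 4 genes was higher. *Txn1* (-0.20 ± 0.18) and *Txnrd1*, the cytosolic reductase and another standard NRF2 target (-0.38, 95% CI -0.81 to 0.06), were not called. *Txnrd3* was lower by 0.34 on the log2 scale (-0.34 ± 0.12, adjusted p = 0.0476), a call that was lost in 9 of the 10 fits that left out 1 array, all but that without CD replicate 2 (-0.38 to -0.28, adjusted p up to 0.104), and *Txnrd3* stood at 0.13 when scaled on the median of all probes. The mitochondrial reductase *Txnrd2* was not called on its brightest probe (0.02 ± 0.17), whereas its second probe was lower (-0.78 ± 0.17, adjusted p = 0.00330 over all probes). Of 15 tested thioredoxin and glutaredoxin partners, 1 was higher (*Glrx5* 0.78) and 5 were lower, with *Sesn1* (-0.92), *Msrb1* (-0.92) and *Txn2* (-0.71) changing most. Over all genes the shares were 14.2% higher and 15.2% lower.

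The superoxide dismutases, which turn superoxide into hydrogen peroxide, and catalase, which breaks down hydrogen peroxide in peroxisomes, gave no call among 4 genes. *Sod1* averaged 12.84 ± 0.10 in WD SW and 12.40 ± 0.55 in CD livers (SD, n = 5 each), a difference of 0.43 (95% CI -0.02 to 0.89). The mitochondrial *Sod2* averaged 12.02 ± 0.17 in WD SW and 12.29 ± 0.24 in CD livers (-0.27, 95% CI -0.58 to 0.04). With median scaling over the tested probes *Sod2* was lower (-0.52, adjusted p = 0.0213), and with scaling on all probes *Sod1* was higher (0.83, adjusted p = 0.0424). *Cat* stood at 12.23, 12.48, 12.28, 12.86 and 12.68 in WD SW livers, against 12.49, 12.50, 12.39, 11.82 and 12.37 in CD livers (0.19, 95% CI -0.17 to 0.55). The intervals of *Cat* and *Sod2* leave out a change of the size seen for *Gpx4* (1.92). Of 11 tested sources of superoxide and hydrogen peroxide, 3 were higher (*Xdh* 1.51, *Cyba* 1.09, *Uox* 0.63) and 2 lower (*Aox3* -0.54, *Pipox* -0.46). Across all genes 14.2% were higher and 15.2% lower.

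The regulators moved in opposite directions. *Nfe2l2* had 7.40, 7.35, 7.18, 7.90 and 7.51 in WD SW livers, against 6.36, 6.43, 6.13, 5.65 and 6.40 in CD livers, a difference of 1.27 ± 0.18 (2.42-fold, adjusted p = 0.000196). *Keap1* had 7.92, 8.20, 8.31, 7.77 and 8.05 in WD SW livers, against 8.75, 8.62, 8.65, 8.72 and 8.44 in CD livers (-0.59 ± 0.14, adjusted p = 0.00531). Neither gene's groups overlapped. Of the 4 tested *Keap1* probes the 2 brightest were lower (-0.59 and -0.94) and the others were not called (0.22 and 0.14), and *Keap1* stood at 0.21 when scaled on the median of all probes. These are transcript levels, whereas NRF2 is controlled largely through its breakdown, which arrays do not measure.

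The standard NRF2 targets did not move as a group. *Srxn1* and *Gclc* were higher, as above, and *Nqo1*, a quinone reductase, was higher by 0.42 ± 0.13 (adjusted p = 0.0263). *Nqo1* was near background, with 5.69, 5.57, 5.78, 5.44 and 5.50 in WD SW livers, against 5.03, 5.40, 4.97, 5.20 and 5.28 in CD livers, and was detected on 5 WD SW and 2 CD arrays. Its call was lost without WD SW replicate 1, WD SW replicate 3 or CD replicate 3 (adjusted p = 0.0617, 0.0703 and 0.0617), and with median scaling over the tested probes it stood at -0.01. *Hmox1*, the heme-degrading enzyme, had 6.00, 5.52, 6.52, 6.65 and 5.91 in WD SW livers, against 5.78, 5.10, 5.78, 5.37 and 6.05 in CD livers. The groups overlapped and the difference was not called (0.50, 95% CI 0.02 to 0.99, adjusted p = 0.106), though it passed without WD SW replicate 2 (0.65, adjusted p = 0.0407). *Gclm* and *Txnrd1* were not called.

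Of 22 other tested NRF2 target genes, 11 were higher and 3 lower, with a median of 0.67, against 14.2% and 15.2% of all genes. With array brightness as a covariate 1 was higher and 2 were lower, with a median of 0.20. *Me1*, which supplies NADPH and is also a lipogenic enzyme, was higher by 2.22, and the conjugate exporters *Abcc2* and *Abcc3* by 1.89 and 1.60. In the brightness fit *Me1* stood at 0.33 (adjusted p = 0.754) and *Abcc3* at 0.81 (adjusted p = 0.230), neither called. *Osgin1* was lower by 2.62 on the log2 scale (adjusted p = 7.21e-06), with *Ftl1*, the ferritin light chain, at -0.64 and *Blvra* at -0.47. Several of these genes also answer to other regulators, and the list was chosen with results of these data known. Among 9 tested partners and regulators of NRF2, *Sqstm1*, whose product binds KEAP1, was higher (1.25), and *Btrc* (-0.94), *Rbx1* (-0.38) and *Dpp3* (-0.37) were lower.

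The families differed in how they varied among the CD livers. CD replicates 3 and 4 were the lowest 2 CD arrays for 4 of 4 alpha class genes, 6 of 7 mu class genes and 4 of 6 kappa, omega, theta and zeta genes, but for 0 of 5 peroxiredoxin and sulfiredoxin genes. Over all members this held for 20 of 48 (41.7%), against 14.5% of all genes. For each gene, the mean of the other CD arrays was subtracted from the mean of these arrays. The median of these differences over genes was -1.74 in the alpha class and -0.83 in the mu class. The 95th percentile was 466, 403 and 453 on CD replicates 3, 4 and 5, and CD replicate 5 had the highest *Gsta1* value of the CD arrays. The part of brightness in these values was not tested. CD replicates 3 and 4 share a number in their titles, whose meaning is not stated. They also stood apart in some macrophage, neutrophil and erythroid markers, the erythroid values being given above. *Cd14* was 9.04 and 9.77 there, against 5.02 to 5.44 on the other CD arrays. *S100a8* (6.91 and 7.45, against 5.08 to 5.55) and *S100a9* (7.72 and 8.51, against 5.91 to 6.17) ran likewise, but *Elane*, *Csf1r* and *Clec4f* did not. How these markers relate to the transferase values was not tested. The SD was larger in CD than in WD SW livers for 41 of 48 members (85.4%) and for 73.7% of all genes.

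**Figure D2:**
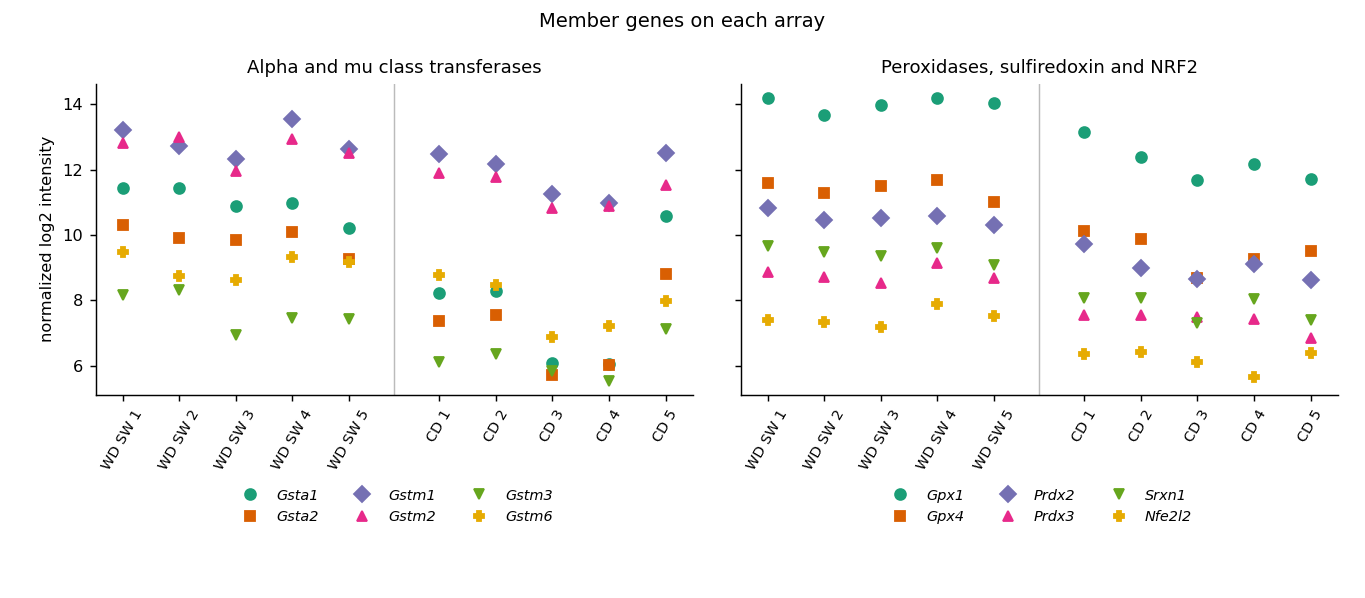
Normalized log2 intensity (vertical axis) of 12 members on each of the 10 arrays (horizontal axis, WD SW left, CD right), 1 point per array. *Gsta1* and *Gsta2* are at 5.72 to 6.10 on CD replicates 3 and 4 and at 10.57 and 8.81 on CD replicate 5, while *Gpx4*, *Prdx3* and *Srxn1* lie below every WD SW value on all 5 CD arrays.

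Without CD replicates 3 and 4, 12 members were higher and 3 lower, 15 of 48, against 24.2% of all genes called in either direction. *Gsta1* and *Gsta2* remained called at 1.95 ± 0.45 and 1.97 ± 0.30, and in the mu class only *Gstm2* and *Gstm3* remained. Against CD replicate 1 alone, the CD array as bright as the WD SW arrays, 8 members were higher (*Gsta1*, *Gsta2*, *Gpx1*, *Gpx4*, *Nfe2l2*, *Prdx2*, *Prdx3*, *Srxn1*) and 1 lower (*Gstp1*), against 4.06% and 3.61% of all genes (7.68% either way). With array brightness as a covariate, 3 were higher (*Gpx4* 1.25 ± 0.32, *Prdx3* 1.20 ± 0.27, *Srxn1* 1.34 ± 0.29) and 1 lower (*Gstp1* -1.41 ± 0.36), against 2.01% and 1.83% of all genes (3.84% either way). *Gsta1* and *Gsta2* kept most of their size in that fit (2.34 ± 1.09 and 2.23 ± 0.75) but were not called (adjusted p = 0.243 and 0.108), whereas *Gstm6* (0.12 ± 0.40), *Gstm1* (0.24 ± 0.45) and *Gclc* (0.32 ± 0.31) came close to 0. Brightness and diet are largely confounded here, and what sets the brightness was not tested.

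**Figure D3:**
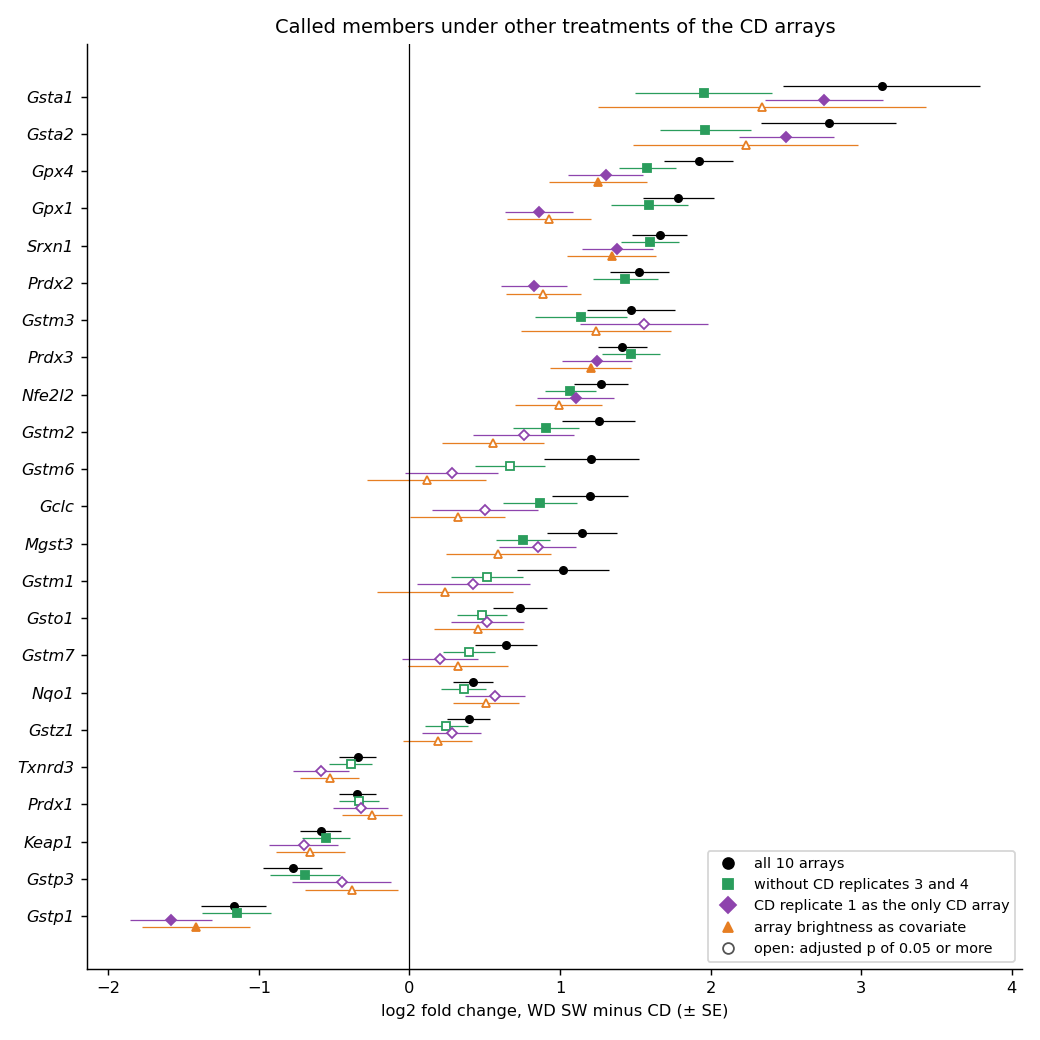
Change of the 23 called members (log2 WD SW minus CD, horizontal axis, bars are SE) over all 10 arrays and under 3 other treatments of the CD arrays; filled points passed an adjusted p of 0.05. *Gpx4*, *Prdx3*, *Srxn1* and *Gstp1* stay filled throughout, and the mu class genes are open with brightness as a covariate and against CD replicate 1 alone. The fit against CD replicate 1 alone holds no spread between CD mice, so its bars and fill rest on the WD SW arrays only.

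Of the 53 member genes, 28 had more than 1 probe and 19 had more than 1 tested probe. In the fit of single probes, 29 of the 75 tested member probes were higher and 8 lower, against 31.3% of all tested probes called in either direction. Probes of *Gsta1* (3.14, 2.95 and 2.07), *Gpx4* (1.92 and 1.59) and *Gstm6* (1.20 to 1.36) moved together. The 3 *Srxn1* probes were all higher but by unequal amounts (1.66, 0.68 and 0.74), and the second *Prdx2* probe, detected on 5 WD SW and 2 CD arrays, was not called (0.33 ± 0.18). *Gstp1*, *Keap1* and *Txnrd2* held probes of both signs or unequal calls, so their direction is that of the probe named. Which transcript forms the probes read was not examined.

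**Figure D4:**
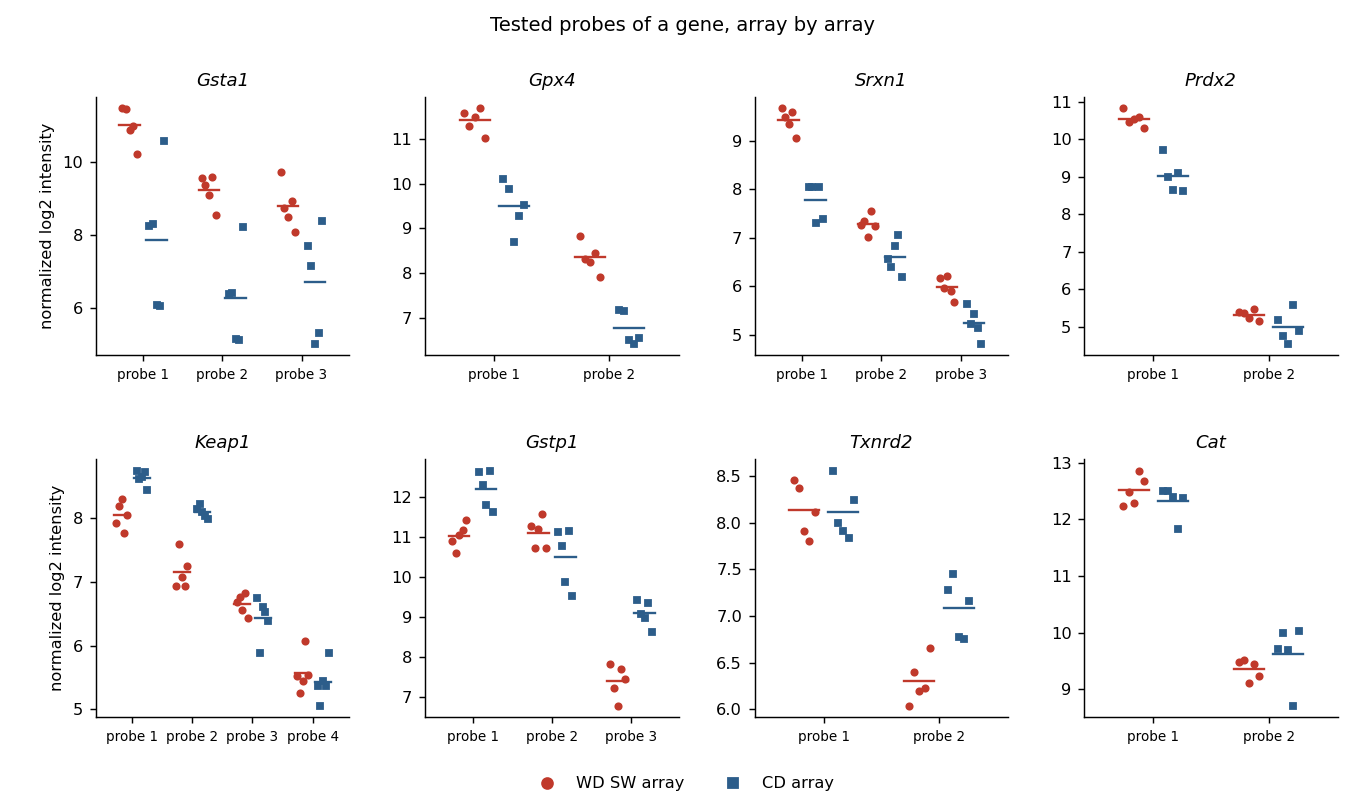
Normalized log2 intensity (vertical axis) of every tested probe of 8 members, with the brightest probe first, in WD SW (circles) and CD arrays (squares); horizontal bars are means of 5 arrays. The *Gsta1*, *Gpx4* and *Srxn1* probes are higher in WD SW, whereas 1 of the 3 *Gstp1* probes (0.61) runs against the other 2 (-1.17 and -1.70).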

How the data were processed

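Liver RNA from 10 mice, 5 per diet, was measured on Illumina bead arrays. The authors deposited unnormalized probe signals, a linear fluorescence intensity without background subtraction, and a table of normalized intensities, used as an alternative (normalization method: not given in the sources used here). Signals were corrected with normexp (offset 16), log2 transformed and quantile normalized (limma 3.58.1, R 4.3.3). A probe counted as detected on an array at a one-sided p of 0.05 against signals below the mode, and was tested if detected on 5 of 10 arrays. The platform table gave 1 symbol for 34885 probes, several for 18 and none for 10378. Each gene took its brightest tested probe, and diets were compared with lmFit and eBayes and Benjamini-Hochberg adjustment over 10187 genes. The probe fit used 14858 probes. The fit was tested on simulated data. The number of arrays limits the precision. Members and lists were chosen with earlier results of these data known. Named were all called members, standard NRF2 genes, members with a second probe called otherwise, and up to 3 list genes per direction. Other genes named were chosen after their values were seen. Sequences and positions are from RefSeq (GRCm38.p6), in which 53 members had a position and 48 a promoter window. Alternatives covered background correction, scaling, detection, probe choice, variance model, array weights, brightness, the number in the titles as a block and leaving out arrays.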

Additional observations from a re-analysis of the deposited data

Results flagged for a closer look

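In 60 groups of 5 arrays (30 named members in each diet), 4 held an array that stood apart from its 4 neighbours by Dixon's ratio, where chance gives about 1 in 20. *Cat* was 11.82 on CD replicate 4, against 12.37 to 12.50 on the other CD arrays. *Gclm* was 10.31 on CD replicate 1, with the nearest CD array at 11.15. *Gstz1* was 13.61 on WD SW replicate 5, with the nearest WD SW array at 13.36. *Prdx3* was 6.86 on CD replicate 5, with the nearest CD array at 7.43.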

How the results depend on the processing

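Counts of members (18 higher, 5 lower) and of genes (1449 and 1547) moved most with the treatment of the CD arrays and the scaling. With brightness as a covariate the members were 3 and 1 and the genes 205 and 186. Against CD replicate 1 alone they were 8 and 1, and 414 and 368. With median scaling over the tested probes they were 16 and 11, and 1207 and 3263. Scaled on the median of all probes, a setting chosen after seeing the data, they were 30 and 0, and 4872 and 146. Lower members numbered 3 without CD replicates 3 and 4 (12 higher), with no detection filter, with probes averaged, with array weights, with the number in the titles as a block and with the second brightest probe (chosen after seeing the data). Leaving out 1 array gave 14 to 21 members higher and 3 to 5 lower, and 1181 to 1619 and 1162 to 1755 genes; the lowest count of higher members was without CD replicate 3. The number shared between some titles of a diet, whose meaning is not stated, ended 5 calls as a random block (15 members higher, 3 lower), those of *Gstm7*, *Gstz1*, *Nqo1*, *Prdx1* and *Txnrd3*. CD replicates 3 and 4, left out together above, share such a number, as do CD replicates 1 and 2. The authors' normalized values gave 18 and 5 members, the same 23 genes. Directions reversed for *Gstp1* (0.61) and *Txnrd2* (-0.78) on the second probe, for *Gstz1* (-0.02) and *Nqo1* (-0.01) with median scaling over the tested probes, and for *Gstp3* (0.02), *Keap1* (0.21) and *Txnrd3* (0.13) scaled on all probes. Signs also changed, with no call in either fit, for *Gclm* (0.48 with brightness, 0.58 against CD replicate 1 alone, 0.36 scaled on all probes), *Sod1* (-0.14 with brightness, -0.09 against CD replicate 1 alone), *Cat* (-0.27 on the second probe, -0.06 to -0.04 in other settings), *Sod2* (0.17) and *Txnrd1* (0.43) scaled on all probes, and *Txnrd2*, whose change is near 0 (-0.48 to -0.01). The cause was not tested. Over all named members and settings, 653 values kept their side of the threshold. With the sign unchanged, 95 lost their call and 6 gained one, and the 7 reversed directions above crossed the threshold too. List medians moved by more than the replicate spread in 77 values and not in 294. *Gpx4*, *Prdx3* and *Srxn1* kept their call under every alternative listed. Where a probe lay near background, as for *Nqo1*, *Gpx7* and *Gstp2*, the offset compresses a change. No paired analysis was possible because the titles of the 2 diets share no replicate numbers.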
